A study of Rattus rattus with 24 samples.

Results

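Gene expression after 48 hours of triiodothyronine (T3) was compared to vehicle control in primary cultures of rat oligodendrocyte progenitor cells (OPCs). The comparison was defined by the sample labels: 3 arrays labelled T3 at 45 nM for 2 days and 3 labelled control for 2 days, 6 of the 24 arrays of the series. T3 cultures received the hormone in differentiation medium, and control cultures received that medium with the DMSO vehicle. The other arrays of the series held quetiapine at 1 μM, T3 plus quetiapine at those doses, and the same 4 conditions after 96 hours. All groups shared the cell source, which was neonatal rat cortex selected for the progenitor antigen A2B5 and expanded with PDGF, and the medium supplement B27, which the study notes holds a little T3. Control cultures were therefore not free of the hormone, and the control group was a low-T3 group rather than a T3-free one. GEO names the organism as Rattus rattus, while the study's methods describe Sprague Dawley animals.

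T3 acts through nuclear thyroid hormone receptors, which sit on DNA with retinoid X receptors, hold target genes down with corepressors when empty and recruit coactivators when the hormone binds. In the oligodendrocyte lineage the hormone is known to time the exit of progenitors from division and to promote the expression of myelin genes. It is used for this reason as a standard differentiation signal in progenitor cultures.

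Each probe set of the 1-colour Affymetrix rat array gave a log2 expression value, so a difference of 1 is a 2-fold change. Values of a gene are listed below in the order of replicates 1, 2 and 3. The series counts 3 biological replicates, each sampled in every condition, without saying whether they were separate isolations of cells. In the fit with a replicate block described below, p values measure the scatter left within replicate numbers, pooled over the 4 conditions at 48 hours. That scatter may be partly technical. Array medians lay between 6.44 and 6.50, arrays of T3 correlated with each other across probe sets with Pearson's r of 0.990 to 0.995 and control arrays with 0.988 to 0.994. The 3' less 5' difference of the beta-actin probe sets, a sign of RNA quality, was 0.606, 0.566 and 0.622 with T3 and 0.582, 0.577 and 0.623 in control. Arrays with the same number resembled each other across groups: over all probe sets, the deviations of a T3 and a control array from their group means correlated with r of 0.760, 0.430 and 0.711 in replicates 1, 2 and 3. Limma was therefore fitted with the replicate number as a block, on the 12 arrays of 48 hours, and p values were adjusted across 31042 probe sets. Calls needed a change of more than 1.5-fold besides an adjusted p under 0.05, while rises and falls of named genes and list members needed the limit on p alone. Precision is limited by having 3 arrays a group.

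More probe sets were called higher than lower with T3, and the rises were larger. Called higher were 527 probe sets (1.7% of those tested, for 330 genes), and called lower 193 (0.622%, for 132 genes). Changes over 2-fold numbered 186 among the rises and 14 among the falls, and changes over 4-fold numbered 31 and 0. The largest rise was 16.2-fold, in a probe set with no gene symbol, and the largest fall 2.92-fold. No call of detection was used here, so folds of genes whose control values lie well below the array medians, as in that probe set and in Nt5e below, are ratios of the deposited values and not bounds. Without the limit on the fold 1418 probe sets were higher (4.57%) and 1711 lower (5.51%) at an adjusted p under 0.05. Which direction had more depended on the fit: without the block 246 were higher and 79 lower, with all 24 arrays 813 and 703, and without all arrays of replicate 2, 293 and 76. With 1 of the 6 arrays left out 738 to 1348 were higher and 562 to 1922 lower, the fewest of both without T3 replicate 2, and the falls outnumbered the rises only without control replicate 1. Among the called probe sets, which this same contrast chose, the 3 T3 values lay wholly above the 3 control values in 407 of the 527 and wholly below them in 116 of the 193, where 8.33% of all probe sets lay wholly above and 8.44% wholly below. Counts of list members below that rose or fell are to be read against the 4.57% and 5.51% above.

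The calls rested on the comparison within replicate numbers. Without the block, 177 probe sets were called higher and 34 lower, and all of these were among the calls above. With 1 of the 6 arrays left out, the called falls numbered from 118 without control replicate 3 and 127 without T3 replicate 2 to 379 without control replicate 1. At an adjusted p under 0.05, 413 of the 527 and 131 of the 193 held whichever of the 6 arrays was left out. Of the 131 named genes that passed, 89 held in all 6 of these fits and 36 passed without the block, and the exceptions are given beside the genes described.

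**Figure D1:**
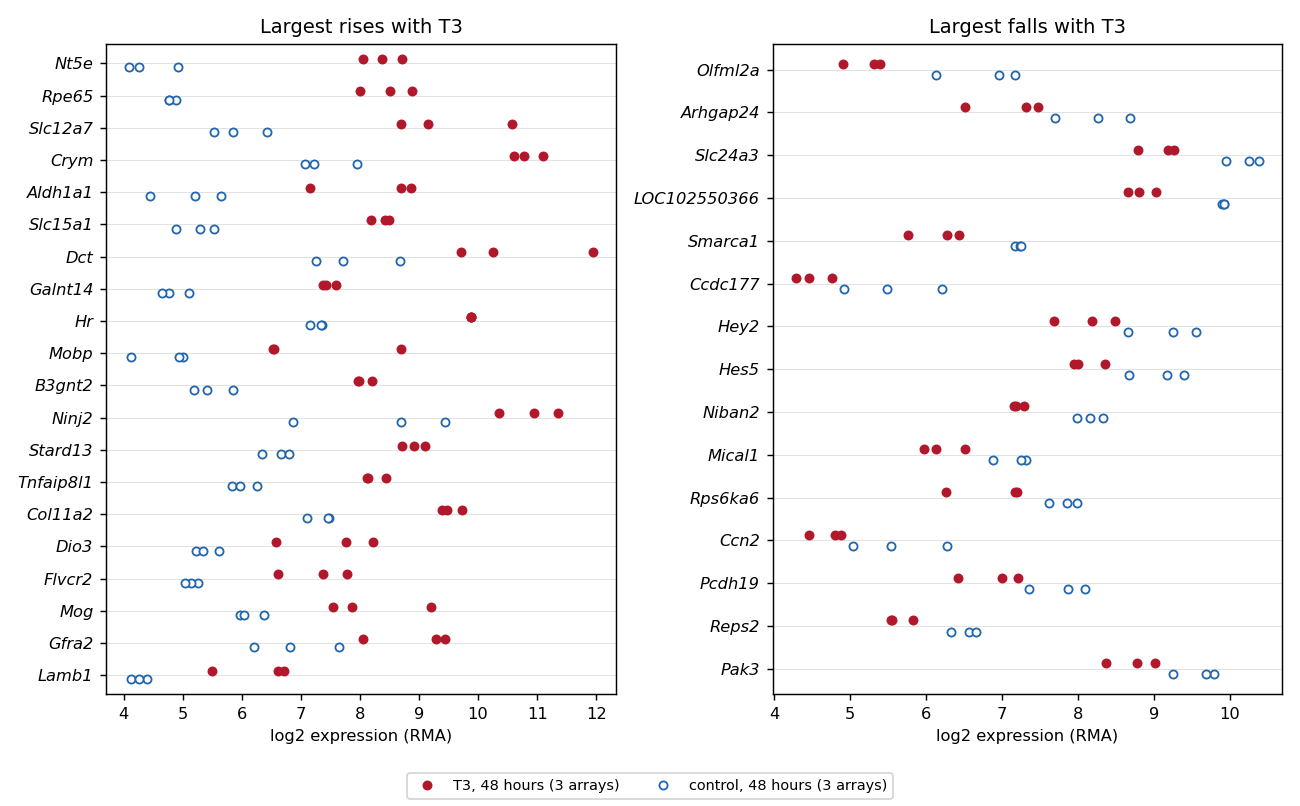
Log2 expression on each of the 6 arrays at 48 hours for the 20 genes with the largest called rises and the 15 with the largest called falls, by their most changed probe set. Filled points are the 3 T3 arrays and open points the 3 control arrays, and the groups do not overlap in any of these genes because lack of overlap was a condition for showing them.

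Some genes that receive and dispose of the hormone changed. Hr, the hairless corepressor of thyroid hormone receptors, stood at 9.87, 9.89 and 9.88 in T3 cultures, against 7.36, 7.34 and 7.15 in control. Its T3 values hardly varied between replicates, and its log2 change of 2.60 (standard error 0.0742, adjusted p = 1.22e-07) had the smallest adjusted p among the named genes. Thrb, which encodes the beta receptor, was at 9.93, 10.21 and 10.38 with T3 and 9.34, 9.52 and 9.21 in control, a rise of 0.82 (standard error 0.108, adjusted p = 0.00144), and 2 further Thrb probe sets rose by 0.81 and 0.71 while another changed by 0.28 (adjusted p = 0.0646). The alpha receptor gene Thra was not shown to change (−0.07, adjusted p = 0.629). Of 13 measured receptors and coregulators, 2 rose and 2 fell, the falls being Med1, a Mediator subunit that binds the receptors, by 0.19 and Tbl1xr1, a corepressor complex subunit, by 0.24. Both falls were lost without the block (adjusted p 0.574 and 0.319). Med1 was also lost when any one of the 6 arrays was left out, and Tbl1xr1 when any one of them other than control replicate 1 was left out.

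Among genes of hormone transport, binding and breakdown, the binding protein and the inactivating enzyme rose. Crym, the cytosolic T3-binding protein mu-crystallin, was at 11.10, 10.61 and 10.77 with T3 and 7.22, 7.06 and 7.94 in control, a 10.7-fold difference (log2 change 3.42, standard error 0.158, adjusted p = 2.35e-06). Dio3, the deiodinase that inactivates thyroid hormones, was at 6.57, 7.76 and 8.22 with T3 and 5.23, 5.61 and 5.34 in control. Its change of 2.12 (standard error 0.264, adjusted p = 0.00103) was smallest in replicate 1, where the T3 value was the lowest of the 3. For the activating deiodinase Dio2, at 4.35, 4.60 and 4.48 with T3 and 4.49, 4.48 and 4.48 in control, no change was detectable (−0.0037, adjusted p = 0.987). These values lay well below the array medians of 6.44 to 6.50. Without a call of detection, lack of change and lack of signal cannot be told apart for Dio2. In all, 2 of 13 rose and 2 fell, the falls being Slco1c1, a thyroid hormone transporter, by 0.82 (adjusted p = 0.0173) and Slc7a5, an amino acid transporter that also carries thyroid hormones, by 0.34 (adjusted p = 0.0307). Neither fall passed without the block (adjusted p 0.24 and 0.137), and leaving out T3 replicate 1, 2 or 3 or control replicate 2 ended both, as did leaving out control replicate 3 for Slc7a5.

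Of 20 measured genes known from other tissues or cells to respond to thyroid hormone, 8 rose and 1 fell, with a median log2 change of 0.14 where the median of all probe sets was 0.00018. Large rises in a few members thus stood beside members that did not pass. Klf9, a zinc finger transcription factor, was at 10.26, 10.63 and 10.89 with T3 and 8.03, 8.79 and 9.15 in control (log2 change 1.94, standard error 0.115, adjusted p = 1.07e-05). Both groups were lowest in replicate 1 and highest in replicate 3, and of its other probe sets one rose by 1.3 and one changed by 0.14 (adjusted p = 0.522). Thrsp, the Spot 14 protein of fat synthesis, was also lowest in replicate 1 in both groups, with 8.77, 11.26 and 10.82 in T3 cultures and 7.40, 9.16 and 9.35 in control. The groups overlapped, because the T3 value of replicate 1 lay below the control values of replicates 2 and 3, yet T3 was higher in each same-numbered pair (log2 change 1.64, standard error 0.156, adjusted p = 0.000216). Without the block its adjusted p was 0.514. Further Thrsp probe sets rose by 2.06 and 1.69 (adjusted p = 2.71e-05 and 0.00101 with the block). Me1, the malic enzyme that supplies NADPH, overlapped too and was higher with T3 in each pair, at 10.27, 10.91 and 11.59 with T3 and 9.56, 10.10 and 10.74 in control (log2 change 0.79, adjusted p = 0.000134, and 0.532 without the block). Genes of the list with log2 changes near 0 included Pcp2 (−0.002), Camk4 (−0.03) and Shh (−0.0046). These are known as targets mainly in neurons, and the part of that in their values was not tested.

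Clock genes rose in part, with none falling: 5 of 18 passed and the median change was 0.11. With 1 of the 6 arrays left out 2 to 5 passed, 2 without T3 replicate 2 and 3 without T3 replicate 3 or control replicate 2. Dbp, a transcription factor of the clock's output, was at 9.14, 9.12 and 9.53 with T3 and 7.71, 7.60 and 7.76 in control (log2 change 1.58, standard error 0.0804, adjusted p = 3.84e-06). Nr1d2, the nuclear receptor REV-ERB beta, was at 8.57, 8.57 and 8.80 against 8.13, 8.14 and 8.26, a small rise of 0.47 (adjusted p = 0.000888) that 2 further probe sets shared with 0.47 and 0.45. Bhlhe40, a repressor in the clock, rose by 1.02 and Npas2, a partner of Bmal1, by 0.81 (adjusted p = 0.00932 and 0.0244). Both were lost without the block (0.296 and 0.153) and without T3 replicate 2, and Npas2 also without T3 replicate 3 or control replicate 2 or 3. Core clock genes gave values of 0.01 for Per1, 0.06 for Per2, −0.07 for Cry1 and −0.08 for Bmal1, none past the limit. Of 14 Kruppel-like factors, 2 rose and 1 fell. Beside Klf9 these were Klf13 with a rise of 0.41 (adjusted p = 0.00994, and 0.0582 without T3 replicate 2) and Klf15 with a fall of 0.41 (adjusted p = 0.0315), a call that ended when any one array other than control replicate 1 was left out. Without the block the adjusted p was 0.583 for Klf13 and 0.695 for Klf15.

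Retinoid genes held some of the largest rises in the data. Rpe65, the isomerohydrolase of the visual cycle, was at 8.01, 8.50 and 8.88 with T3 and at 4.76, 4.88 and 4.76 in control, where the values were nearly equal (log2 change 3.66, standard error 0.172, adjusted p = 2.35e-06). Aldh1a1, which oxidises retinaldehyde to retinoic acid, was at 7.16, 8.69 and 8.87 against 4.44, 5.22 and 5.64 (log2 change 3.14, standard error 0.221, adjusted p = 2.88e-05). Rdh10, a retinol dehydrogenase, rose by 0.57 (adjusted p = 0.000888), while a second Rdh10 probe set changed by −0.1 (adjusted p = 0.694). Rlbp1, the cellular retinaldehyde-binding protein, fell by 0.41 with overlapping groups (adjusted p = 0.00449, and 0.415 without the block). The whole list gave 3 rises and 2 falls among 21 genes with a median of 0.07, so the large changes belonged to a few enzymes and not to the list.

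Of 20 genes of extracellular nucleotides and adenosine 3 rose and 1 fell, where 4.57% of all probe sets rose and 5.51% fell. Nt5e, the surface enzyme CD73 that makes adenosine from AMP, was at 8.38, 8.05 and 8.72 in T3 cultures and 4.27, 4.92 and 4.10 in control (log2 change 3.95, standard error 0.287, adjusted p = 3.69e-05). The purine receptor gene P2ry1 rose by 0.66 and the adenosine receptor gene Adora2b fell by 0.60 (adjusted p = 0.0118 and 0.0345), each with overlapping groups. Entpd4, an intracellular nucleotide hydrolase, rose by 0.22 (adjusted p = 0.0427). Only Nt5e of these passed without the block, the others having adjusted p values of 0.32 to 0.705. Calls were lost for P2ry1 without T3 or control replicate 2, for Adora2b when any one array other than control replicate 1 was left out, and for Entpd4 when any one array other than control replicate 2 was left out.

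The other genes among the 20 largest rises without overlap included transporters, enzymes of glycosylation, matrix proteins and a growth factor receptor. Slc12a7, a potassium-chloride cotransporter, was at 8.69, 9.15 and 10.58 with T3 and 5.53, 5.85 and 6.43 in control (log2 change 3.53, standard error 0.237, adjusted p = 2.34e-05), though its other probe set changed by 0.05 (adjusted p = 0.721). Slc15a1, a proton-coupled peptide transporter, was at 8.49, 8.42 and 8.19 against 5.53, 5.30 and 4.88 and rose by 3.13 (standard error 0.148, adjusted p = 2.35e-06). Flvcr2, a transporter of the heme exporter family, rose by 2.11 on one probe set and gave −0.02 (adjusted p = 0.911) on the other. Probe sets of Slc12a7 and Flvcr2 thus disagreed, and their values do not stand for all transcripts of the gene. Galnt14, which starts mucin-type O-glycans, was at 7.38, 7.42 and 7.60 against 5.11, 4.77 and 4.65 (log2 change 2.62, adjusted p = 2.67e-05), and B3gnt2, which extends N-acetyllactosamine chains, at 7.98, 7.97 and 8.20 against 5.19, 5.86 and 5.40 (log2 change 2.56, adjusted p = 4.19e-05). Of the other B3gnt2 probe sets one rose by 1.79 and one changed by 0.25 (adjusted p = 0.154). The matrix genes Col11a2, a collagen chain, and Lamb1, a laminin chain, rose by 2.18 and 2.02 (adjusted p = 1.06e-05 and 0.000352).

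Other genes in that set were set apart by how far replicates differed. Dct, the melanin pathway enzyme dopachrome tautomerase, was at 9.71, 10.25 and 11.94 with T3 and 7.26, 7.71 and 8.68 in control, highest in replicate 3 in both groups (log2 change 2.75, standard error 0.191, adjusted p = 2.75e-05). Ninj2, an adhesion protein, was at 11.34, 10.95 and 10.35 against 9.44, 8.69 and 6.86, lowest in replicate 3 in both (log2 change 2.55, standard error 0.321, adjusted p = 0.00111). Gfra2, the neurturin receptor, followed the same order as Ninj2 at 9.43, 9.29 and 8.05 against 7.64, 6.82 and 6.21 (log2 change 2.04, adjusted p = 4.35e-05). These 3 did not pass without the block (adjusted p 0.0917 to 0.141). Every T3 value of theirs lay above every control value, but that was a condition for entering the set. By contrast Stard13, at 9.11, 8.71 and 8.92 against 6.66, 6.35 and 6.79, and Tnfaip8l1, at 8.14, 8.12 and 8.45 against 6.25, 5.83 and 5.96, differed less between replicates and passed in both fits (log2 changes 2.31 and 2.22, adjusted p = 7.46e-06 and 5.44e-05 with the block).

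The largest falls were of 1.81- to 2.92-fold. Olfml2a, a secreted olfactomedin-domain protein, was at 5.32, 4.90 and 5.40 with T3 and 6.96, 6.12 and 7.17 in control (log2 change −1.55, standard error 0.208, adjusted p = 0.00162), and its other probe set gave −0.25 (adjusted p = 0.117). Slc24a3, a sodium-calcium exchanger that also moves potassium, was at 9.19, 8.79 and 9.27 against 10.25, 9.95 and 10.39 (−1.11, adjusted p = 0.000575), with −0.24 (adjusted p = 0.0643) on a second probe set. Smarca1, a chromatin remodelling ATPase, was at 6.43, 5.76 and 6.27 against 7.17, 7.23 and 7.25, where the control values were nearly equal (−1.07, adjusted p = 0.00192). Arhgap24, a GTPase-activating protein for Rac, fell by 1.12 (adjusted p = 0.000193), Mical1, an enzyme that takes actin filaments apart, by 0.95 (0.000534), Pak3, a kinase under Rac and Cdc42, by 0.85 (0.000165), and Pcdh19, a protocadherin, by 0.90 (9.03e-05). The 2 other Pak3 probe sets fell by 0.76 and 0.53. Rps6ka6, a ribosomal S6 kinase, Reps2, an adaptor of endocytosis, Niban2, LOC102550366 and Ccdc177 fell by 0.87 to 1.09 (adjusted p 0.000613 to 0.00914). Ccn2, the connective tissue growth factor, fell by 0.91 (adjusted p = 0.0246), with control values of 5.04, 6.28 and 5.54 that were themselves far apart. Its call ended without T3 replicate 2 or 3 or control replicate 2 or 3 (adjusted p up to 0.125), and that of Ccdc177 without T3 replicate 2 (0.0557). Without the block Arhgap24, Ccdc177, Rps6ka6, Ccn2, Pcdh19 and Pak3 did not pass (adjusted p 0.111 to 0.319), and Reps2 stood at 0.0502.

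**Figure D2:**
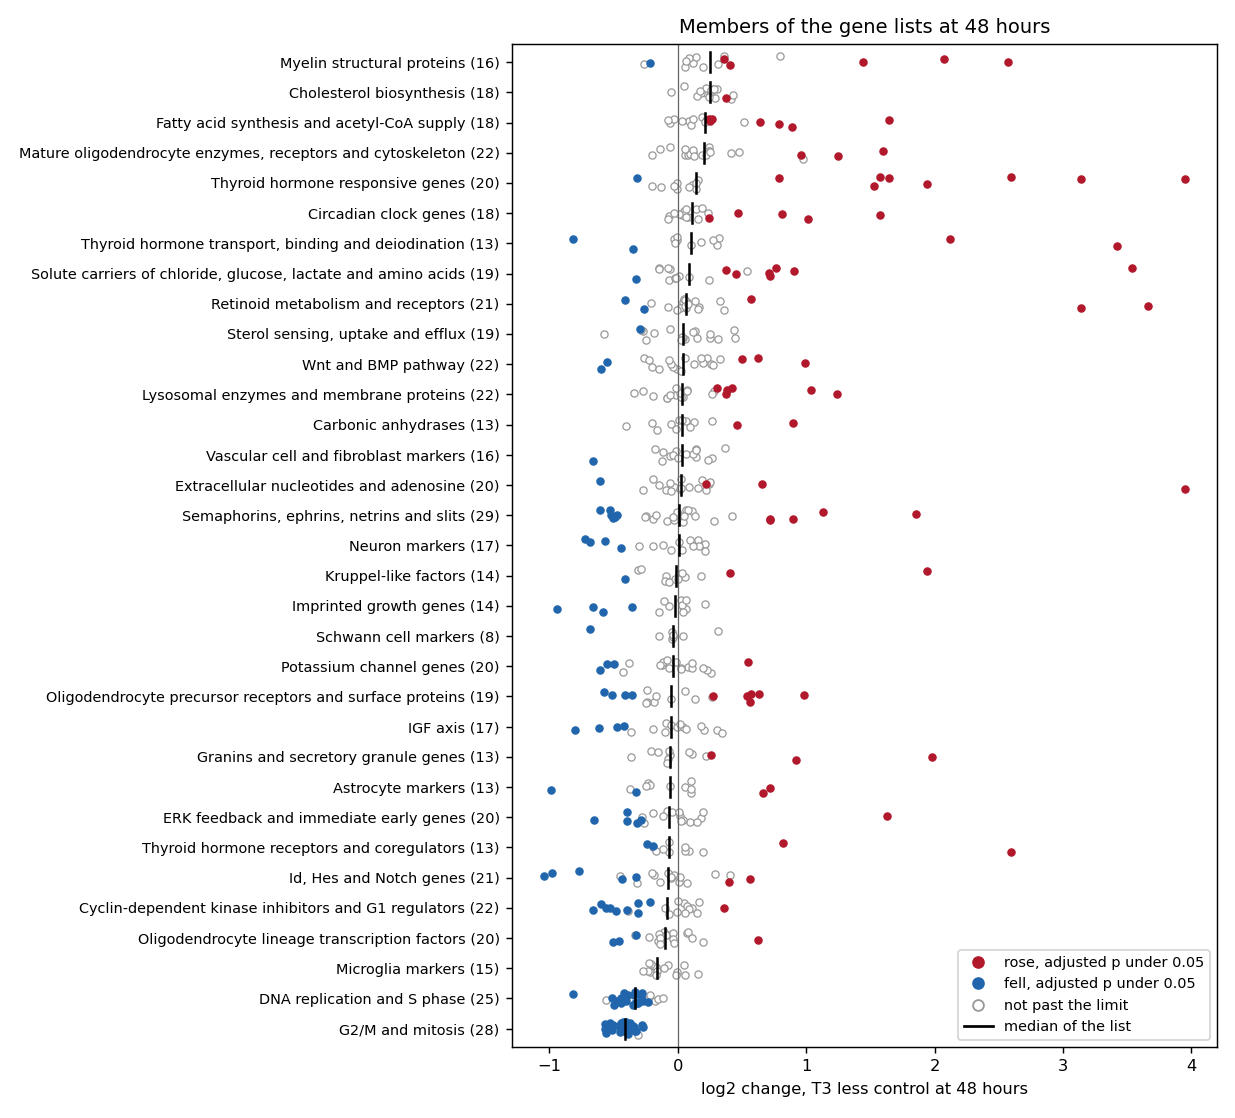
Log2 change with T3 less control at 48 hours for every measured member of the 33 gene lists, each by the probe set of highest mean among those with 1 symbol, with the number measured in brackets. Red points rose and blue points fell at an adjusted p under 0.05, open points did not pass, and the bar is the list's median, which lies lowest for G2/M and mitosis (−0.41) and DNA replication (−0.34).

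Notch effectors and a Notch ligand were lower with T3. Of 21 Id, Hes and Notch genes 5 fell and 2 rose, with a median of −0.07, and with 1 of the 6 arrays left out 3 to 6 fell, the fewest without T3 replicate 2 or 3 or control replicate 3. Hey2, a Notch effector, was at 7.68, 8.18 and 8.49 with T3 and 8.66, 9.26 and 9.56 in control (−1.04, standard error 0.111, adjusted p = 0.000432), and Hes5, another, at 8.002, 7.95 and 8.36 against 8.67, 9.17 and 9.40 (−0.98, standard error 0.149, adjusted p = 0.0031), while a second Hes5 probe set gave 0.12 (adjusted p = 0.42). Dll1, a Notch ligand, was at 7.38, 6.998 and 7.30 against 8.01, 7.72 and 8.25 (−0.77, adjusted p = 0.000728). Within each same-numbered pair all 3 genes were lower with T3, and Hes5 alone of them passed without the block (adjusted p = 0.0279, beside 0.131 for Hey2 and 0.0695 for Dll1). Id2, which blocks basic helix-loop-helix factors and is high in dividing progenitors, went the other way, at 11.40, 11.54 and 11.64 with T3 and 10.93, 10.92 and 11.05 in control (log2 change 0.56, adjusted p = 0.00183).

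Progenitor and lineage genes gave mixed directions. The cultures carried high signal for the lineage markers in both groups, with Olig1 at 13.05, 13.05 and 13.12 with T3 and 13.15, 13.09 and 13.15 in control, and Sox10 at 11.48, 11.21 and 10.89 with T3 and 11.67, 11.29 and 11.05 in control, neither past the limit. Pdgfra, the PDGF receptor of progenitors, fell to 12.33, 12.09 and 12.20 in T3 cultures, against 12.60, 12.54 and 12.70 in control (−0.41, adjusted p = 0.0232, and 0.209 without the block), and Cspg4, the NG2 proteoglycan, to 8.48, 7.68 and 7.83, against 8.89, 8.36 and 8.47 (−0.58, adjusted p = 0.00211). The Pdgfra call ended when any one array other than control replicate 1 was left out (adjusted p 0.0662 to 0.103). In bulk cultures, fewer progenitors and less RNA per progenitor cannot be told apart. Of 19 progenitor surface genes 4 fell and 6 rose. The rises included the tetraspanin Cd9, at 13.24, 13.18 and 12.70 against 12.56, 12.24 and 11.37 (0.99, adjusted p = 0.000887), the adhesion molecule Ncam1 by 0.63 (0.0107) and the AMPA receptor auxiliary subunit Cacng4 by 0.57 (0.00822), so this list did not move as one. The Ncam1 rise ended without T3 or control replicate 3 and that of Cacng4 without T3 replicate 2, and without the block Cacng4 passed (0.049) while Cspg4, Cd9 and Ncam1 did not (0.209 to 0.449). Among 20 lineage transcription factors 1 rose, Nkx6-2 by 0.63 (adjusted p = 0.0489), and 3 fell, Nkx2-2 by 0.51, Sox11 by 0.46 and Myt1 by 0.32 (0.0254 to 0.0374). Leaving out T3 replicate 1, 2 or 3 ended each of these 4 calls, leaving out control replicate 2 or 3 ended those of Nkx6-2, Sox11 and Myt1, and none passed without the block (0.255 to 0.846).

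Part of the myelin programme was higher with T3 at 48 hours. Mobp, the myelin-associated basic protein, was at 6.53, 6.55 and 8.70 with T3 and 5.001, 4.12 and 4.93 in control (2.57, standard error 0.39, adjusted p = 0.00305), and 2 further probe sets rose by 2.55 and 2.13. Mog, a glycoprotein of the outermost myelin surface, was at 7.55, 7.87 and 9.21 against 6.38, 5.97 and 6.05 (2.08, standard error 0.374, adjusted p = 0.00706). In both genes T3 replicate 3 stood above the other T3 arrays. Pmp2, a lipid-binding myelin protein, showed the same, at 7.11, 7.11 and 8.75 against 6.12, 6.10 and 6.43 (1.44, adjusted p = 0.0165), and lost its call without T3 replicate 2 or 3 or control replicate 3. Mag, the myelin-associated glycoprotein, was at 11.92, 12.12 and 12.55 against 11.63, 11.82 and 11.90 (0.41, adjusted p = 0.0223), a call that ended without any one T3 array. Mbp, the myelin basic protein, was at 13.997, 14.10 and 14.19 with T3 and 13.92, 13.98 and 14.02 in control (0.12, standard error 0.0537, adjusted p = 0.206), with overlapping groups. At least 99.977% of probe sets lay below the Mbp value on each of these arrays, whose highest values were 14.16 to 14.23, and the part of that ceiling in the result was not tested. Of 16 myelin structural genes 5 rose and 1 fell, where 4.57% of all probe sets rose and 5.51% fell. In that list 12 were higher with T3 in every same-numbered pair (21.8% of all probe sets were), and the median was 0.25. With 1 of the 6 arrays left out 2 to 6 rose, the fewest without T3 replicate 2 or 3, and without the arrays of replicate 2 in any group none did. Without the block none passed, Mobp and Mog having adjusted p values of 0.218 and 0.118.

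Enzymes, receptors and cytoskeletal genes of mature oligodendrocytes gave a similar picture, with 3 of 22 risen, none fallen and a median of 0.20. Aspa, the aspartoacylase that frees acetate for myelin lipids, was at 8.62, 9.18 and 10.32 with T3 and 7.36, 7.75 and 8.21 in control (1.60, standard error 0.185, adjusted p = 0.000666). Rras2, a Ras-related GTPase, was at 11.33, 11.87 and 12.56 against 10.60, 10.97 and 11.30 (0.96, adjusted p = 0.000451), and a second probe set rose by 1. Gpr37, a receptor of differentiating oligodendrocytes, was at 6.80, 7.14 and 8.96 against 6.15, 6.06 and 6.94 (1.25, adjusted p = 0.015) and lost its call without T3 replicate 2 or 3. None of the 3 passed without the block (adjusted p 0.302 to 0.589). The other 19 members had changes from −0.20 for Car2, a carbonic anhydrase, to 0.98 for Ppp1r14a, a phosphatase inhibitor (adjusted p = 0.383 and 0.116).

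Lipid genes rose in part. Of 18 fatty acid genes 7 rose and none fell, with a median of 0.22. Fads2 and Fads1, the desaturases of long-chain fatty acids, rose together. Fads2 was at 9.95, 10.18 and 10.31 with T3 and 9.23, 9.12 and 9.41 in control (0.89, adjusted p = 0.000815), and Fads1 at 11.44, 11.60 and 11.95 with T3 and 10.77, 10.99 and 11.30 in control (0.64, adjusted p = 0.000111). The groups did not overlap in either gene, and Thrsp and Me1, given above, were the other leading members. The synthases Fasn and Acaca gave −0.02 and −0.06, not past the limit. Without T3 replicate 2 or 3 the 7 rises became 4, and without the block 1 of the 7 passed, Fads2 (0.0489). Of 18 cholesterol genes 17 lay above 0 and 15 were higher with T3 in every same-numbered pair, with a median of 0.25, but only Sc5d, a late sterol desaturase, passed (rise 0.37, adjusted p = 0.0465, 0.24 without the block, and no longer past the limit with each array centred on its median). The count depended on control replicate 1, in which the list's mean of 10.73 stood above those of control replicates 2 and 3 (10.45 and 10.42) and near those with T3 (10.82, 10.78 and 10.73). Without that array 7 of the 18 rose, and without any other one of the 6 arrays none did. Lysosomal genes gave 6 rises and no fall among 22 with a median of 0.04, which became 3 rises without T3 replicate 2 or 3, 4 without T3 replicate 1 or control replicate 3 and 2 without the block. Ctsl, a protease, was at 11.07, 11.79 and 12.64 with T3 and 10.24, 11.03 and 11.13 in control (1.04, adjusted p = 0.00194, and 0.424 without the block), and Gla, which degrades glycosphingolipids, at 8.94, 8.99 and 8.96 against 8.55, 8.65 and 8.43 (0.42, adjusted p = 0.00154).

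Cell cycle genes fell together by small amounts. All 25 measured genes of DNA replication and all 28 of G2/M and mitosis were lower with T3 in every same-numbered pair, where 23.7% of all probe sets were, and 19 and 27 of them fell at an adjusted p under 0.05, where 5.51% of all probe sets did. Their median log2 changes were −0.34 and −0.41, and only 1 of the 53 changed by more than 1.5-fold. That was Uhrf1, which maintains DNA methylation at replication, at 8.87, 8.43 and 8.87 with T3 and 9.53, 9.39 and 9.67 in control (−0.81, standard error 0.0785, adjusted p = 0.000237). Mcm6, a subunit of the replicative helicase, was at 10.06, 9.73 and 9.91 against 10.41, 10.29 and 10.52 (−0.51, adjusted p = 0.0031), and Cdt1, which loads that helicase, at 8.50, 8.32 and 8.38 against 8.86, 8.83 and 8.95 (−0.48, adjusted p = 0.00794). Among mitotic genes Mki67, the Ki-67 antigen, was at 8.95, 8.95 and 9.39 against 9.50, 9.38 and 10.08 (−0.56, adjusted p = 0.00165), where T3 replicate 3 lay just above control replicate 2. Bub1b, of the spindle checkpoint, and Kif23, a kinesin of cell division, fell by 0.56 and 0.55 (adjusted p = 0.00327 and 0.00315), and Ccna2, cyclin A, by 0.56 (0.00991, and 0.0598 without T3 replicate 2). A second Kif23 probe set gave −0.02 (adjusted p = 0.936).

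The mean of the DNA replication list was 8.91, 8.70 and 8.88 with T3 and 9.15, 9.10 and 9.31 in control, and that of the G2/M list 9.14, 8.90 and 9.21 with T3 and 9.41, 9.35 and 9.74 in control. These means did not overlap. In 18 of the 25 and 22 of the 28 genes the 3 T3 values lay wholly below the 3 control values. Of all probe sets 8.44% lay so. The number of single genes that passed nevertheless depended on the block and on the arrays of replicate 2. Without the block none of the 53 passed, and with the block but a spread taken from all 24 arrays 3 did. Over the fits with 1 of the 6 arrays left out 22 to 44 of the 53 fell, the fewest without T3 replicate 3, and without all arrays of replicate 2, 2 did.

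**Figure D3:**
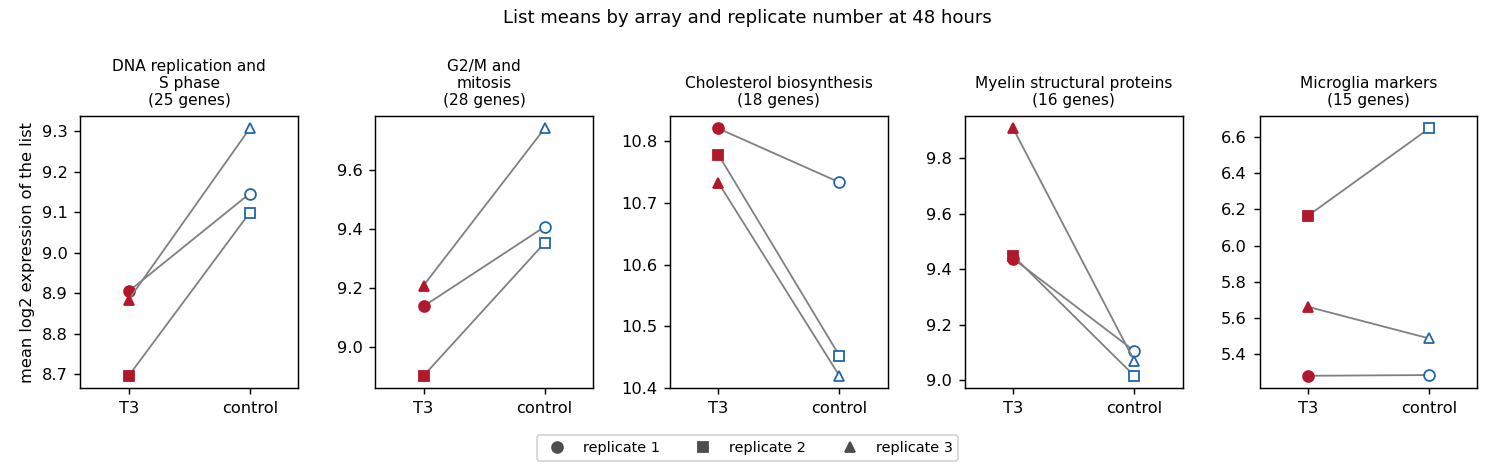
Mean log2 expression of 5 gene lists on each of the 6 arrays at 48 hours, with T3 on the left, control on the right and a line joining the arrays of one replicate number. Each panel has its own scale, and all 3 lines slope the same way for DNA replication, G2/M, cholesterol and myelin genes but not for microglia markers.

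Regulators of G1 gave 9 falls and 1 rise among 22. Cdkn1c, the p57 inhibitor of cyclin-dependent kinases, was at 11.58, 11.37 and 11.19 with T3 and 12.35, 12.10 and 11.66 in control (−0.66, adjusted p = 0.00423), and Cdkn1a, the p21 inhibitor, at 8.73, 9.04 and 9.08 against 8.34, 8.65 and 8.76 (rise 0.36, adjusted p = 0.0393). Inhibitors of the same family thus moved in opposite directions. Mycn, E2f2 and Ccnd2, which drive entry into S phase, fell by 0.60, 0.56 and 0.53 (adjusted p = 0.000585, 0.00141 and 0.00375). The Cdkn1a rise did not pass in any of the 6 fits with 1 array left out, in which 5 to 7 members of the list fell, and without the block nothing in the list passed.

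Some genes of the IGF axis, of the imprinted growth list and of ERK feedback fell. Igfbp2, an IGF-binding protein, was at 10.46, 10.74 and 11.18 with T3 and 11.16, 11.49 and 12.13 in control (−0.80, standard error 0.0667, adjusted p = 9.57e-05), and both groups were lowest in replicate 1 and highest in replicate 3. Of 17 IGF genes 4 fell and none rose, the others being Igf2bp2 by 0.61, Igfbp3 by 0.42 and Igf1r by 0.47. Of 14 imprinted growth genes 4 fell and none rose: Cdkn1c, given above, Mest, a hydrolase-like protein, by 0.94 (adjusted p = 0.000144), Nnat, neuronatin, by 0.58 (0.00116) and Ndn, necdin, by 0.36 (0.0082). Etv5 and Etv1, transcription factors under ERK, and Spry1, a feedback inhibitor of ERK, fell by 0.65, 0.39 and 0.40 (adjusted p = 0.00124, 0.02 and 0.0156). Fos, an immediate early gene, stood apart from this list of 5 falls and 1 rise among 20, at 9.40, 9.29 and 9.67 with T3 and 7.43, 8.05 and 7.99 in control (1.63, standard error 0.149, adjusted p = 0.000165), while its second probe set gave 0.04 (adjusted p = 0.808). The 5 falls of this list became 3 without T3 replicate 1, 2 without control replicate 1 or 3, 1 without T3 replicate 2 or 3 or control replicate 2, and 0 without the block. Of all these genes Nnat and Fos passed without the block (0.0379 and 0.0167). The fall of Ndn ended without T3 replicate 2, that of Spry1 without T3 replicate 2 or 3 or control replicate 1 or 2, and those of Etv1 and Igf1r when any one array other than control replicate 1 was left out.

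Medians of the marker lists of other cells moved little, from −0.16 for microglia to 0.03 for vascular cells and fibroblasts. Some members of these lists nevertheless passed, where 4.57% of all probe sets rose and 5.51% fell. No call of detection was used, so the presence of those cells was not established. Of 15 microglia markers none passed, with means over the list of 5.28, 6.17 and 5.66 with T3 and 5.28, 6.65 and 5.48 in control. Replicate 2 carried the most microglial signal in both groups, and its control array the most of all, as in C1qb, a complement gene (4.54, 5.54 and 5.18 with T3, 4.26, 6.94 and 4.87 in control), and Tyrobp, a microglial adaptor (4.45, 6.33 and 5.40 with T3, 4.58, 7.34 and 4.94 in control). Without control replicate 2 the called probe sets numbered 520 higher and 185 lower, against 527 and 193 with it. They numbered 458 and 127 without T3 replicate 2, and 260 and 59 without all arrays of replicate 2. The means over 13 astrocyte markers were 9.45, 10.004 and 10.19 with T3 and 9.42, 10.04 and 10.34 in control, with 2 risen and 2 fallen, among them Aldh1l1, a folate enzyme used as an astrocyte marker, which fell by 0.99 (adjusted p = 0.0121, and 0.0717 without T3 replicate 2). Of 17 neuron markers 4 fell, Dcx by 0.72, Gap43 by 0.68, Stmn2 by 0.56 and Map2 by 0.44 (adjusted p 0.000538 to 0.0267), with list means of 7.74, 7.56 and 7.80 against 7.85, 7.64 and 7.94. Stmn2 lost its call when any one array other than control replicate 1 was left out, and none of these 5 falls passed without the block (0.125 to 0.725). Among 16 markers of vascular cells and fibroblasts 1 fell, Tagln, a smooth muscle protein, by 0.66 (adjusted p = 0.0491), a call lost when any one array other than control replicate 1 was left out, with list means of 5.17, 5.23 and 5.13 against 5.11, 5.21 and 5.15. The part of such cells in the other changes was not tested.

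The T3 response at 48 hours was then read in cultures that also held quetiapine. The contrast of T3 plus quetiapine less quetiapine shares no array with that of T3 less control, though both carry the same replicate numbers and a common estimate of spread. Of the 527 probe sets called higher with T3 alone, 441 (83.7%) were also higher at an adjusted p under 0.05 when T3 was added to quetiapine, where 3.73% of all probe sets were, and of the 193 called lower 162 (83.9%), where 4.17% were. None passed in the opposite direction, and the sign was the same in 524 and 193. The median change was 0.83 with T3 alone and 0.78 on top of quetiapine for the rises, and −0.68 and −0.61 for the falls. Hr, for example, was at 9.93, 9.94 and 10.05 with both compounds and 7.61, 7.44 and 7.59 with quetiapine (2.42, adjusted p = 2.5e-07), and Nt5e at 8.75, 8.65 and 9.77 against 4.46, 4.18 and 4.27 (4.76, adjusted p = 8.72e-06). Genes whose T3 change did not pass on top of quetiapine included Ccn2 (−0.17, adjusted p = 0.726), Npy (−0.10, adjusted p = 0.764), Mag (0.09, adjusted p = 0.663) and Gpr37 (0.46, adjusted p = 0.363). The interaction, which is the difference between these 2 changes, passed for 0 of 31042 probe sets (0%, smallest adjusted p = 0.999952), and 1075 (3.46%) had an unadjusted p under 0.05. A difference in T3 response with and without quetiapine was thus not detectable for any single probe set with these arrays, the named ones included.

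**Figure D4:**
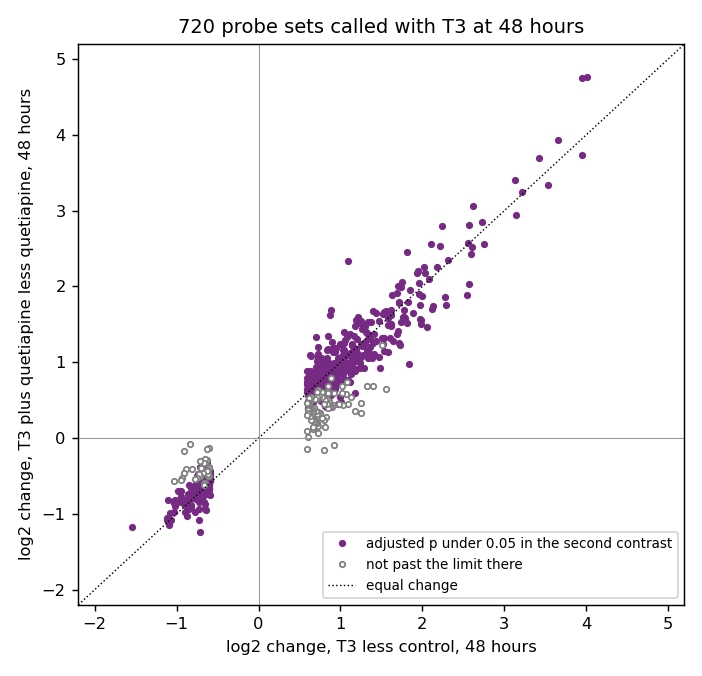
Log2 change of the 720 probe sets called with T3 at 48 hours, with the change of T3 less control on the horizontal axis and that of T3 plus quetiapine less quetiapine on the vertical axis. Filled points passed an adjusted p of 0.05 in the second contrast (603 of 720), and the dotted line marks equal change.

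Most of the 48 hour response was still there at 96 hours, on other arrays. Of the 527 probe sets called higher 467 (88.6%) were higher at 96 hours at an adjusted p under 0.05, where 10.3% of all probe sets were, and of the 193 called lower 170 (88.1%), where 14.3% were. None passed the other way. Medians were 0.83 and −0.68 at 48 hours and 1.02 and −1.09 at 96 hours. Genes with nearly the same change at both times included Crym (3.42 and 3.44), Nt5e (3.95 and 3.93), Stard13 (2.31 and 2.19) and Nr1d2 (0.47 and 0.46), in the order of 48 and 96 hours.

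A test of the change at 96 less that at 48 hours called 211 probe sets higher (0.68%) and 29 lower (0.0934%). Of the 211, 39 had passed at 48 hours at an adjusted p under 0.05, and of the 29, 15 had. The 6 largest later rises included 3 genes known from maturing oligodendrocytes, Ermn, Car2 and Ppp1r14a, none of which had passed at 48 hours. Ermn, an actin-binding protein of myelinating cells, was at 4.33, 4.000 and 4.38 with T3 and 4.23, 4.65 and 4.61 in control at 48 hours, and at 6.62, 8.41 and 9.23 with T3 and 5.02, 5.26 and 5.34 in control at 96 hours (difference of changes 3.14, adjusted p = 0.0359). Car2 was at 7.08, 6.79 and 7.40 against 7.19, 7.30 and 7.38 at 48 hours and at 9.82, 10.83 and 11.66 against 8.12, 7.90 and 7.95 at 96 hours (difference 2.98, adjusted p = 0.00791). Ppp1r14a stood at 9.37, 10.32 and 10.41 against 5.82, 6.36 and 6.06 at 96 hours (difference 2.98, adjusted p = 0.0112). In the myelin list 5 of 16 rose at 48 hours and 13 at 96 hours, and in the list of mature oligodendrocyte genes 3 of 22 and 16, and the difference itself passed for 3 and 5 of them. Mag had a larger change at 96 hours by 1.01 (adjusted p = 0.0212), whereas the difference did not pass for Mog (1.77, adjusted p = 0.106) or Mobp (0.46, adjusted p = 0.862). Of 18 cholesterol genes 1 rose at 48 hours and 13 at 96 hours, but the medians of 0.25 and 0.36 were near each other and the difference between the times passed for none of them. The cell cycle lists gave 21 of 25 and 24 of 28 falls, with medians of −0.81 and −1.04, but the difference between the times passed for none of the 53. Counts of such differences depended strongly on single arrays. The 240 calls became 15 without the block and 0 without all arrays of replicate 2. Of the 48 hour arrays, leaving out T3 replicate 1 gave 109, T3 replicate 2 gave 72, control replicate 1 gave 74, control replicate 2 gave 93 and control replicate 3 gave 486. Of the 96 hour arrays, leaving out T3 replicate 2 gave 88, control replicate 2 gave 117 and control replicate 3 gave 86, and the other 4 arrays moved the count by less than 1.5 times.

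**Figure D5:**
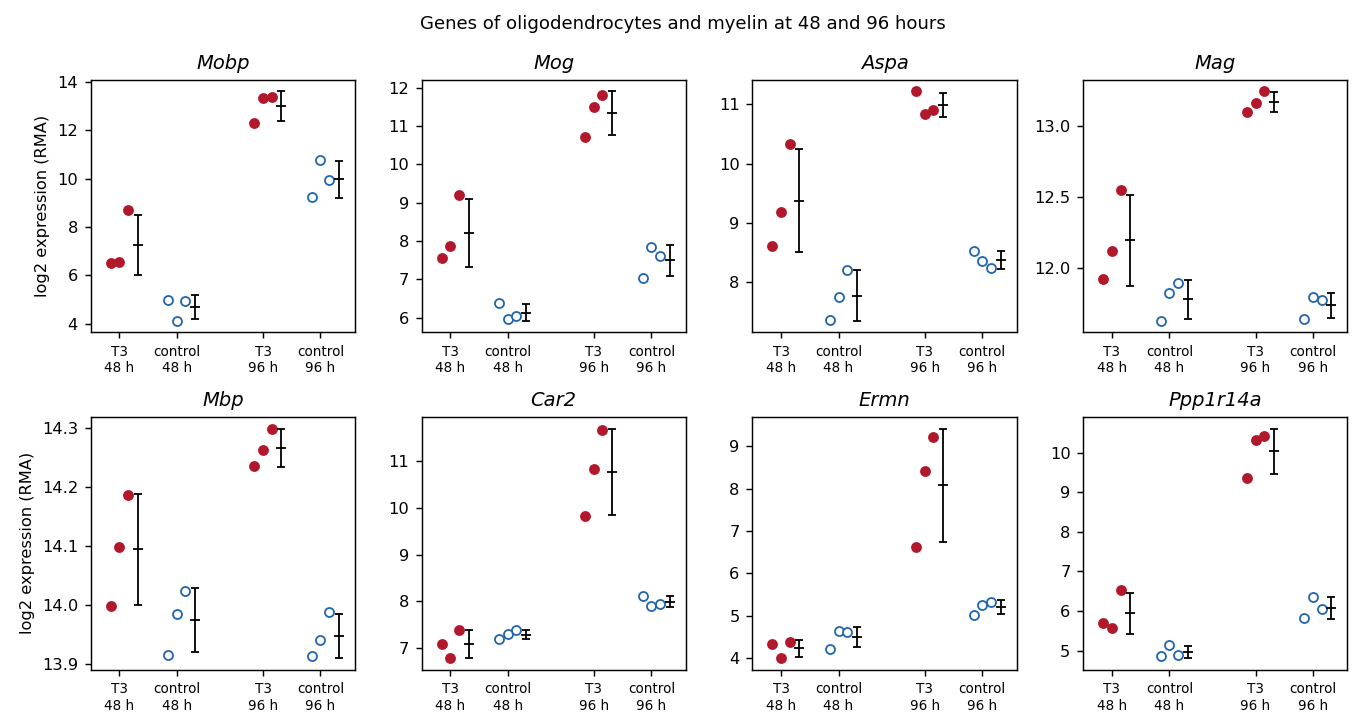
Log2 expression of 8 oligodendrocyte genes in T3 and control cultures at 48 and 96 hours, with points for the 3 arrays of a group in the order of replicates 1, 2 and 3 and a bar for their mean ± SD. Each panel has its own scale: the groups do not overlap in Mobp, Mog, Aspa, Mag and Ppp1r14a at either time, and in Mbp, Car2 and Ermn they overlap at 48 hours but not at 96 hours.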

How the data were processed

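Expression was measured on 1-colour Affymetrix rat arrays, 1 for each of 24 samples. The deposited values are log2 expression per probe set, which the authors made by RMA (background correction, quantile normalization and summarisation), and the version of RMA and the genome build are not given in the sources used here. Quantile normalization gives all arrays the same distribution, so a shift of most genes in one direction would not be seen. Gene symbols came from the platform annotation: 20826 of the 31042 probe sets tested had 1 symbol, 436 had several and 9780 had none, and 57 control probe sets were left out. Genes were named only from probe sets with 1 symbol. In the 33 lists, 583 of 642 genes had such a probe set, and the others are not reported here.

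Groups and replicate numbers came from the labels. Models were fitted to the log2 values in R 4.3.3 (limma 3.58.1), with 4 group means and the replicate number as a block on the 12 arrays of a time, and with 8 group means on the 24 arrays for the difference between times, and p values were adjusted by Benjamini and Hochberg over all probe sets. The fit was tested on simulated data. The series counts 3 biological replicates that gave each condition, and the labels number the replicates alike in each group. All 18 pairs of arrays with the same number at 48 hours deviated together from their group means (r = 0.430 to 0.777). The 36 pairs with different numbers gave r of −0.681 to −0.00478. Because the deviations of the 3 arrays of a group cancel, negative values here follow from the positive ones and are no separate comparison.

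In a list, a gene stood by its probe set with the highest mean over the 24 arrays. Genes named are 5 that the study's text names, the 20 largest rises and 15 largest falls without overlap, up to 4 leading members of each list, and the 6 largest differences between times in each direction. Other list members with values (such as Thra, Dio2, Pdgfra, Cdkn1a, Olig1 and core clock genes) were chosen for their role after their values were seen. The lists and the comparison were chosen with earlier results of these data known. Alternatives covered the block, the arrays in the fit, the scaling, a filter on low values, the variance prior and leaving out arrays or replicate numbers. A search of promoters for motifs was not run, and no sequence was used here.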

Additional observations from a re-analysis of the deposited data

Results flagged for a closer look

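Results below are those in which the T3 change at 96 hours differed from that at 48 hours by a test of the difference itself. In all, 211 probe sets had a larger and 29 a smaller or more negative change at 96 hours, at an adjusted p under 0.05 and a difference over 1.5-fold by limma across 24 arrays.

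Among the later rises, Fgl2, a secreted fibrinogen-like protein with a role in immune regulation, had the largest difference, 3.22 on the log2 scale (adjusted p = 0.00118). It stood at 3.41, 3.55 and 3.85 with T3 and 3.16, 3.31 and 3.54 in control at 48 hours and at 6.96, 7.57 and 7.06 with T3 and 3.49, 3.99 and 3.67 in control at 96 hours. The difference held in each of the 12 fits with 1 array left out (adjusted p at most 0.00744) and without the block (0.0188). Ermn differed by 3.14, Ppp1r14a by 2.98, Car2 by 2.98, Syt4, a synaptotagmin, by 2.70 and Plekhh1 by 2.65 (adjusted p 0.00791 to 0.0359). Of these 5, Car2 and Plekhh1 held in all 12 fits, while Ppp1r14a was lost without T3 replicate 2 of 48 hours, Syt4 without 3 of the 12 arrays and Ermn without 8, and none passed without the block (0.0899 to 0.251).

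Changes in the other direction were smaller. Adgra1, an adhesion G protein-coupled receptor, differed by −1.69, being at 6.62, 7.04 and 7.78 with T3 and 6.18, 6.96 and 7.75 in control at 48 hours and at 6.18, 6.30 and 6.36 with T3 and 7.06, 7.89 and 8.41 in control at 96 hours. Cpxm1 differed by −1.38, Mfap4, a microfibril protein, by −1.22, Igdcc4 by −1.03, Mmp14, a membrane metalloproteinase, by −0.95 and Ndp, the Wnt receptor ligand norrin, by −0.95 (adjusted p of all 6 0.013 to 0.0486). Cpxm1 and Igdcc4 had already fallen at 48 hours, by 1.03 and 0.65 (adjusted p = 0.00299 and 0.00851, and 0.212 and 0.616 without the block). Ndp was lost without control replicate 1 of 48 hours, and the others each without 5 to 11 of the 12 arrays. None of these differences between the times passed without the block (0.448 to 0.92).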

How the results depend on the processing

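The replicate number was treated as a block because arrays with the same number deviated together. With no replicate block the fit called 211 probe sets for T3 against control (177 higher and 34 lower, in place of 527 and 193), 204 for T3 added to quetiapine (in place of 638) and 15 for the T3 change at 96 less 48 hours (15 higher and 0 lower, in place of 211 and 29). The median standard error over all probe sets was 0.0777 with the block and 0.102 without it. The interaction gave 0 calls in both (1075 and 364 probe sets at an unadjusted p under 0.05). With the block as a random effect the difference between times gave 124 calls (120 higher and 4 lower), while the other counts stayed within 1.5 times. Fits on the 6 arrays alone or on all 24, arrays centred on their median, probe sets above the median level only and a trended prior moved no count of calls by more than 1.5 times, where each could be fitted. Among the 143 named genes, 50 no longer passed with all 24 arrays and 13 with the 6 alone.

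With 1 array left out, calls for T3 against control ran from 551 to 964 (421 to 585 higher, 118 to 379 lower), for T3 added to quetiapine from 536 to 699, for the interaction at 0 and for the difference between times from 72 to 486 (68 to 315 higher, 3 to 171 lower). With 1 replicate number left out they ran from 319 to 851 (260 to 535 higher, 59 to 316 lower), from 313 to 653, at 0, and from 0 to 360 (0 to 287 higher, 0 to 73 lower), and replicate 2 gave the fewest. Signs changed, over these same fits, for 6 named genes that had not passed at 48 hours: C1qb (−0.66 to 0.30), Tyrobp (−0.57 to 0.32), Plekhh1 (−0.10 to 0.19), Adgra1 (−0.0054 to 0.38), Mmp14 (−0.065 to 0.24) and Ndp (−0.12 to 0.082). Where each gene stood by its probe set with the smallest p, 5 mature oligodendrocyte genes rose in place of 3, 7 myelin genes and 7 semaphorin, ephrin, netrin and slit genes in place of 5 each and 2 genes of sterol uptake and efflux in place of 0, and 5 potassium channel genes fell in place of 3. The counts of the other lists moved by 1 at most. Further probe sets that did not pass gave −0.01 for Ccdc177, −0.10 for Etv5, −0.12 for Igf2bp2 and Dcx, 0.08 for Gap43 and 0.13 for Slc1a2.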

Other observations

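Further lists held several members that passed at 48 hours, and their counts are to be read against the 4.57% of all probe sets that rose and the 5.51% that fell. Of 29 semaphorins, ephrins, netrins and slits, which guide axons and migrating cells, 5 rose and 6 fell, with a median log2 change of 0.01. The 6 falls became 1 without T3 replicate 1 or 3, 2 without T3 replicate 2 and 3 without control replicate 3, and no member of the list passed without the block. The largest of them was in Efnb1, an ephrin, at 6.38, 6.75 and 7.35 with T3 and 6.88, 7.20 and 8.20 in control (−0.60, adjusted p = 0.0133), a call lost when any one T3 array was left out. Sema3c was at 8.42, 9.06 and 9.82 with T3 and 6.50, 7.08 and 8.14 in control (1.86, standard error 0.152, adjusted p = 8.66e-05), and Sema3d at 9.88, 9.66 and 9.29 against 9.07, 8.71 and 7.65 (1.13, standard error 0.149, adjusted p = 0.00144). The 2 genes were ordered oppositely over the replicates, Sema3c being lowest in replicate 1 and Sema3d lowest in replicate 3 in both groups. Ntn1, netrin 1, rose by 0.90 (adjusted p = 0.000675) on one probe set, and its other 2 gave 0.13 and 0.11 (adjusted p = 0.177 and 0.472). Sema4d rose by 0.72 (adjusted p = 0.0344), a call lost when any one array other than control replicate 1 was left out. Among 22 Wnt and BMP genes 3 rose and 2 fell. Bambi, a decoy receptor of BMP and TGF-beta signalling, was at 9.09, 9.05 and 8.81 with T3 and 8.29, 8.07 and 7.61 in control (0.99, adjusted p = 0.000288), while the ligand Bmp4 rose by 0.63 (0.0113, and 0.0651 without T3 replicate 3), the ligand Bmp7 fell by 0.59 (0.00165) and the Wnt antagonist Sfrp1 fell by 0.55 (0.0227, lost when any one array other than control replicate 1 was left out). Without the block only Bambi of these genes passed (0.0418, the others 0.0594 to 0.615).

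Solute carriers gave 7 rises and 1 fall among 19, with a median of 0.09. Beside Slc12a7, these included Slc38a3, a glutamine transporter, at 8.19, 8.78 and 9.32 with T3 and 7.66, 7.74 and 8.18 in control (0.90, adjusted p = 0.00486), and Slc2a1, the glucose transporter GLUT1, at 10.15, 10.44 and 10.89 against 9.53, 9.68 and 9.99 (0.76, adjusted p = 0.00366). The glutamate transporter genes Slc1a2 and Slc1a3, which are also astrocyte markers, gave a rise of 0.72 and a fall of 0.33 (adjusted p = 0.0419 and 0.029). Calls were lost for Slc1a2 when any one array other than T3 replicate 1 was left out and for Slc1a3 without any T3 array or control replicate 3. Secretory granule genes gave 3 rises among 13. Scg2, secretogranin II, was at 5.43, 6.73 and 6.21 with T3 and 3.99, 4.18 and 4.26 in control (1.98, standard error 0.205, adjusted p = 0.000359), and the neuropeptide gene Npy at 8.12, 8.45 and 9.62 against 7.41, 7.60 and 8.40 (0.92, adjusted p = 0.00267), with overlapping groups. Potassium channel genes gave 1 rise, Kcnj10 or Kir4.1 by 0.55 (adjusted p = 0.0104, and 0.0504 without control replicate 3), and 3 falls among 20, Kcnmb4 by 0.61, Kcnd2 by 0.55 and Kcnd3 by 0.50 (adjusted p 0.00281 to 0.00683). Of 13 carbonic anhydrases Car8, a member without catalytic activity, rose by 0.90 (adjusted p = 0.00612) and Car14 by 0.46 (0.0444, lost when any one array other than T3 replicate 1 was left out), while a second Car14 probe set rose by 1.27 (adjusted p = 0.0167). Of the genes of this paragraph Slc12a7 and Scg2 passed without the block (0.00778 and 0.0143), and the others did not (0.154 to 0.669).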
